A study of Rattus norvegicus with 6 samples.

Results

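A set of 5 genes with which a cell takes up or makes organic osmolytes, or switches such genes on, was examined in rats 3 h after mating, in the endosalpinx, which is the mucosa that lines the oviduct. They are Slc5a3, Slc6a6, Slc6a12, Akr1b1 and Nfat5. Each was taken at the probe set (the group of array probes that gives 1 value) annotated with its symbol alone, and where a gene had several, at the one of highest mean over the 6 arrays. Of the 5 genes 4 were measured, among 14506 genes in all. The RNA of Slc6a12 is not analysed here. Slc5a3 was singled out because earlier results of these data had placed it higher in mated animals. Its difference is therefore given as a description, with no test, and the question put to the other members is whether they share it.

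The animals were adult female Sprague-Dawley rats of 240 to 280 g, all killed at 0130 h of estrus, with 3 unmated and 3 mated rats and 1 array for each. Unmated females were housed alone from pro-estrus, and the labels record uterine edema in them. Mated females joined a fertile male at 2200 h of pro-estrus, showed sperm or a vaginal plug after 30 min, stayed with the male, and are recorded as having abundant semen in the uterus. The company of a male was given to the mated group alone, so its effects and those of mating cannot be told apart. The values are log2 signals after RMA, which corrects the background of the arrays and gives them a common distribution, so a difference of 1 is a 2-fold change and a gene's level is not comparable with another gene's.

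Organic osmolytes are small neutral solutes that cells gather when the fluid around them becomes hypertonic, because they balance water without disturbing proteins as salt does. Myo-inositol enters through the sodium-coupled carrier Slc5a3, taurine through Slc6a6 and betaine through Slc6a12, while aldose reductase, Akr1b1, makes sorbitol from glucose. The transcription factor Nfat5, also called TonEBP, is activated by hypertonicity and drives all 4 of these genes through a short element, the tonicity-responsive enhancer (TonE). The best known setting is the renal medulla. The oviduct lining secretes the fluid in which sperm and eggs meet, and its cells face a lumen whose solutes change through the cycle.

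Of the 4 measured genes, the groups were separated for Slc5a3, which was chosen for its rise, and overlapped for the other 3. Overlap is the common case: over all genes the groups were separated for 5.24% with mated rats higher and for 3.23% with mated rats lower. Slc5a3 lay 0.64 log2 units higher in mated rats, with no overlap between the groups. Slc6a6 differed by 0.10, Akr1b1 by -0.07 and Nfat5 by -0.01, each with a 95% confidence interval that held 0 and ended below the Slc5a3 difference. That difference has no interval and belongs to a gene chosen for its rise, so it is not a fixed mark for the others. Whether the differences of the genes differ from each other was not tested. No gene of the array passed an adjusted p of 0.05 (0% of 14506 genes by limma, a linear model that pools the spread over genes; 4.57%, or 663 genes, had an unadjusted p under 0.05), and the smallest adjusted p was 0.984.

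Slc5a3, the sodium/myo-inositol cotransporter, gave log2 signals of 10.31, 10.24 and 10.55 in the 3 unmated rats and of 10.92, 10.84 and 11.26 in the 3 mated rats. All mated values lay above all unmated values, and the gap between the lowest mated and the highest unmated rat was 0.29. Mated replicate 3 was the highest array and unmated replicate 2 the lowest. The mean of the unmated group was 10.37 ± 0.16 and that of the mated group 11.01 ± 0.22 (SD, n = 3 each), a 1.56-fold ratio. Over all genes, the groups were separated with mated rats higher for 5.24% and with mated rats lower for 3.23%; because Slc5a3 was chosen for this pattern, nothing is read from its place among them.

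Slc6a6, the taurine transporter, gave 10.80, 10.59 and 10.96 in unmated and 11.01, 10.77 and 10.86 in mated rats. The groups were interleaved: the highest unmated rat lay above the lower pair of mated rats. The means were 10.78 ± 0.19 and 10.88 ± 0.12 (SD, n = 3 per group), and the difference of 0.10 had a 95% confidence interval from -0.16 to 0.35 (adjusted p = 0.984 by limma). As a ratio this interval runs from 0.898-fold to 1.27-fold. The 1.56-fold ratio of Slc5a3 lies above it, but that ratio has no interval and belongs to a gene chosen for its rise. Whether the 2 genes differ was not tested. The difference was smaller than the spread between rats, and without unmated replicate 2 it was 0.

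Akr1b1, the enzyme that makes sorbitol, gave 10.71, 10.98 and 10.88 in unmated and 10.97, 10.72 and 10.66 in mated rats. The values ran the other way from those of Slc5a3, with 2 of the 3 mated rats near the lowest unmated one, but the groups overlapped over nearly their whole range. The means were 10.86 ± 0.14 and 10.78 ± 0.16 (SD, n = 3 per group), a difference of -0.07 (95% confidence interval -0.32 to 0.17; adjusted p = 0.985 by limma). The difference was -0.17 without mated replicate 1 and -0.01 without unmated replicate 2 or mated replicate 3. A second, dimmer probe set annotated to Akr1b1 gave 7.38 ± 0.10 and 7.36 ± 0.18 (SD, n = 3 per group), a difference of -0.01. The RefSeq table of the rat assembly GRCr8 lists 5 pseudogenes under the Akr1b1 name, and probes can bind transcripts of close copies, so which copies each probe set reads is uncertain.

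Nfat5, the regulator, had the narrowest values of the 4 genes. It gave 10.73, 10.69 and 10.71 in unmated and 10.59, 10.83 and 10.69 in mated rats. The mated values lay on both sides of the unmated ones. The means were 10.71 ± 0.02 and 10.70 ± 0.12 (SD, n = 3 per group), and the difference of -0.01 had a 95% confidence interval from -0.19 to 0.18 (adjusted p = 0.993 by limma). The sign of so small a value moved with the arrays used: it was 0.05 without mated replicate 1 and -0.07 without mated replicate 2, -0.002 after a second quantile normalization and -0.02 with arrays centred on their medians. Nfat5 is known to be controlled largely through its protein, by translation, phosphorylation and entry into the nucleus, none of which an RNA level measures.

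**Figure D1:**
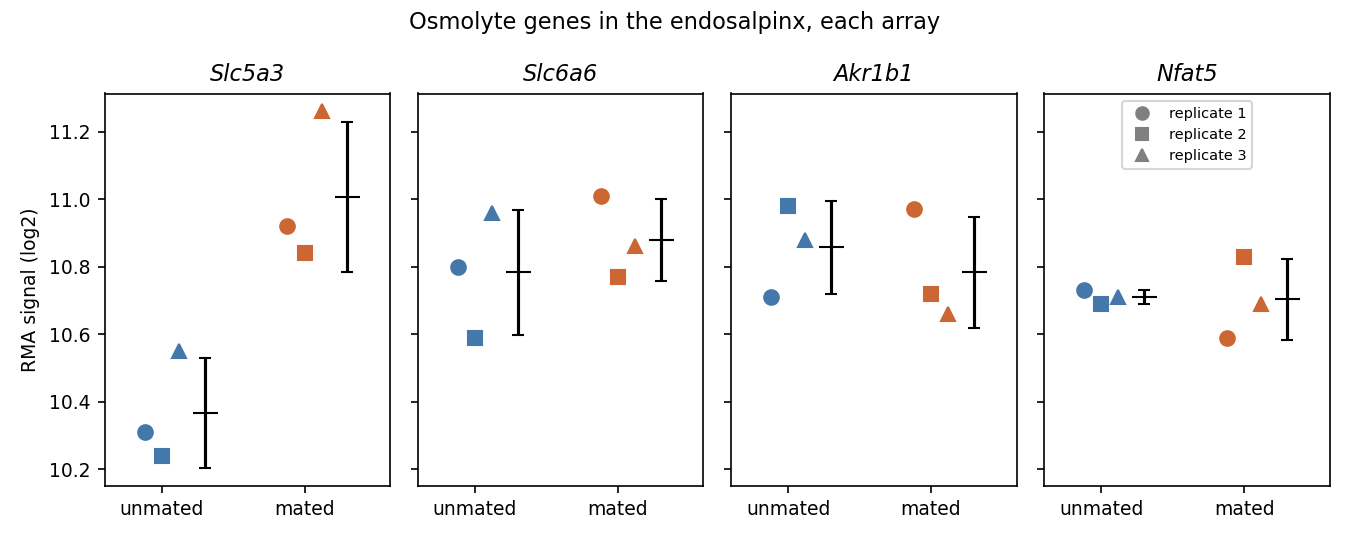
Log2 RMA signal of the 4 measured osmolyte genes in each array (y axis), for unmated (blue) and mated (orange) rats; marker shapes are replicate numbers, and the black bars are the mean and SD of 3 rats. The mated rats of Slc5a3 lie between 10.84 and 11.26, all above its unmated rats at 10.24 to 10.55, and the groups of the other 3 genes overlap.

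All 4 genes lay well above background. Background was gauged from the receptor genes for odorants and pheromones, which belong to sensory neurons, and a gene is called above the receptor range when its mean over all arrays exceeded the 95th percentile of that family, a log2 signal of 7.13. The 4 genes had means over the 6 arrays from 10.69 for Slc5a3 to 10.83 for Slc6a6. The small differences of Slc6a6, Akr1b1 and Nfat5 were thus not measured near background. In whole tissue, a change in the number of cells of a type and a change in RNA per cell cannot be told apart.

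Where a window was given, the sequence close to the annotated start was searched for the element read by Nfat5. RefSeq windows of the assembly GRCr8 ran from 250 bases before to 50 after an annotated start. Windows were given for Slc5a3, Slc6a6 and Slc6a12, and not for Akr1b1 or Nfat5. They were searched on both strands for the core TGGAAA and for the longer TonE consensus, each match of which contains the core. The window of Slc6a6 held 1 match to the full TonE consensus on the opposite strand, its core 156 bases before the start, while those of Slc5a3 and Slc6a12 held neither motif. Among 33469 windows of 300 bases, 22.7% held the core and 5.98% the full consensus, and a match is not a site shown to be used. Sequence farther from the starts was not searched, so a window with no match does not show that a gene lacks the element. The stretch of Slc6a6 at chr4:125752331-125752360 (plus strand) is shown with the TonE match in capitals, because it holds that match. That of Slc5a3, the gene chosen for its rise, at chr11:44799537-44799786 (plus strand) is shown whole before its start. It has no capitals because it has no match.
Slc6a6: ggccaagctgGTATTTTTCCAcccagcagg
Slc5a3: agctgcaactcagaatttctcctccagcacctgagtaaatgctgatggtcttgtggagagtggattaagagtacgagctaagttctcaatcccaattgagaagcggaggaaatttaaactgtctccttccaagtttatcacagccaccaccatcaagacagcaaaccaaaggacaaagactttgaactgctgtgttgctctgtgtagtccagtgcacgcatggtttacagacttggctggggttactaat

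The Slc5a3 start in that table needs care. In GRCr8 the gene lies on chromosome 11 inside the span of Mrps6, a mitochondrial ribosomal protein gene, and in human the corresponding genes are known to share upstream exons. The window before the Mrps6 start held 1 core match on the opposite strand, 227 bases before the start, and no match to the full consensus. No probe set was annotated to Mrps6, so its RNA is not analysed here.

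The nearest measured genes on each side of Slc5a3, itself chosen for its rise, had smaller differences, none past the threshold. Before it stand Cryzl1, Itsn1, which encodes the endocytic scaffold intersectin, and Atp5po, a subunit of ATP synthase. After it stand Kcne2 and Kcne1, accessory subunits of potassium channels, and Smim11, a small membrane protein. In the order of starts, 3 unmeasured genes come between Slc5a3 and Atp5po, and 3 between Slc5a3 and Kcne2. Kcne2, with means of 7.13 in unmated and 7.20 in mated rats, lay close to the receptor limit of 7.13. Their differences ran from -0.12 for Cryzl1 to 0.14 for Kcne1, the groups overlapped for all 6, and all had adjusted p-values from 0.984 to 0.993 by limma. Over all genes the groups were separated for 5.24% with mated rats higher and for 3.23% with mated rats lower, so overlap was common. The widest 95% confidence interval, that of Kcne1, reached from -0.26 to 0.54.

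**Figure D2:**
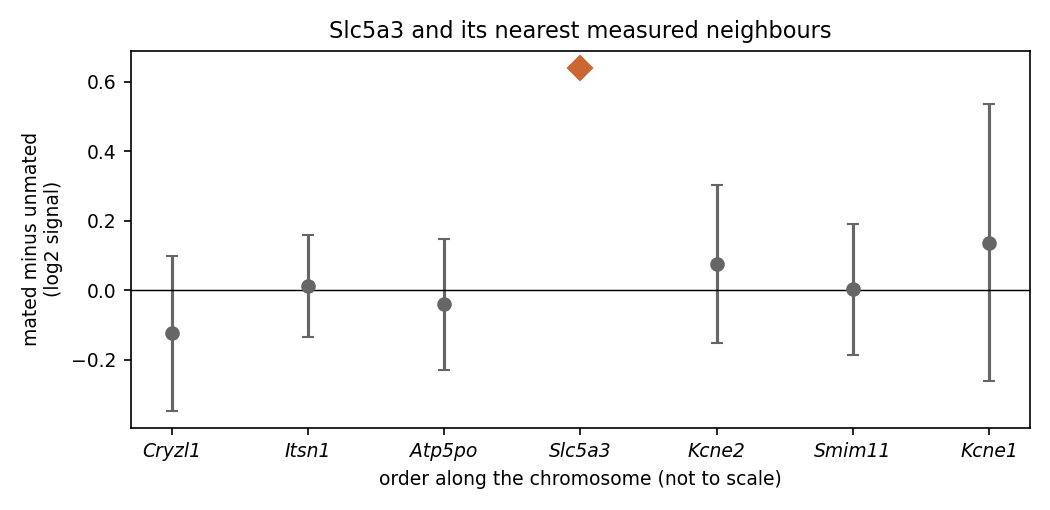
Mated minus unmated log2 difference (y axis) of Slc5a3 (orange diamond, a description with no interval) and of the 3 nearest measured genes on each side in the order of the rat chromosome (grey, with 95% confidence intervals by limma). The neighbours run from -0.12 to 0.14, and Slc5a3 stands at 0.64.

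Genes that handle the same osmolytes were taken from lists of carriers and enzymes. Of 7 measured inositol genes, 3 were higher, 3 lower and 1 equal in mated rats, with a median difference of 0, and 0 had an unadjusted p under 0.05 by limma, where 3.02% of all genes were higher and 1.55% lower at that level. Isyna1, which makes inositol from glucose 6-phosphate, had means of 12.50 in both groups. Slc5a11, the second sodium-coupled inositol carrier, differed by -0.09, and Slc2a13, the proton-coupled one, by 0.08. Impa1, the phosphatase that frees inositol, differed by 0.16, the largest value of the list, and its groups overlapped.

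In the taurine list 3 of 5 measured genes were higher and 2 lower, with a median of 0.15. The largest difference of any list gene was that of Slc6a13, a carrier of GABA and taurine and a relative of Slc6a6 and Slc6a12. It gave 7.08, 7.46 and 7.80 in unmated and 7.60, 8.31 and 7.83 in mated rats, with a mean of 7.68, not far above the receptor limit of 7.13. The groups overlapped, since unmated replicate 3 lay above mated replicate 1, and the difference of 0.47 had a 95% confidence interval from -0.04 to 0.97 (adjusted p = 0.984 by limma). Ado, an enzyme that makes hypotaurine from cysteamine, was the list's member at an unadjusted p under 0.05 by limma. Its difference was -0.15 at a mean of 6.57, within the receptor range. Over all genes 3.02% were higher and 1.55% lower at that level. Csad, which makes hypotaurine from cysteine sulfinate, differed by -0.03.

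In the betaine list 3 of 4 measured genes were higher and 1 lower, with a median of 0.06. Bhmt, which uses betaine to remethylate homocysteine, differed by 0.29 (95% confidence interval 0.08 to 0.49; adjusted p = 0.984 by limma) at a mean of 5.88, within the receptor range. It gave 5.64, 5.65 and 5.91 in unmated and 6.02, 6.04 and 6.0 in mated rats, and the groups did not overlap. Over all genes 5.24% were separated with mated rats higher and 3.23% with mated rats lower. Chdh, which oxidises choline toward betaine, differed by -0.16.

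In the polyol list 3 of 5 measured genes were higher and 2 lower, with a median of 0.11. Sord, which turns sorbitol into fructose, differed by -0.15, and Khk, a fructose kinase, by 0.11. Akr1b8, a relative of aldose reductase, split the rats across the groups: it gave 8.71, 10.09 and 8.95 in unmated and 10.48, 9.01 and 8.87 in mated rats. Unmated replicate 2 and mated replicate 1 were its high arrays, and the same rats had the highest Akr1b1 values, 10.98 and 10.97. The Akr1b8 difference of 0.20 had a 95% confidence interval from -0.90 to 1.30. Both enzymes of glycerophosphocholine turnover that were measured, Gdpd5 at -0.07 and Gpcpd1 at 0.03, stood near 0.

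Of 11 other measured genes known to respond to tonicity, 1 was higher and 0 lower at an unadjusted p under 0.05 by limma, beside 3.02% higher and 1.55% lower over all genes. Of the 11, 8 were higher and 3 lower as deposited, and 6 were higher and 5 lower after a second quantile normalization or with arrays centred on their medians. The 1 gene was Aqp5, a water channel of secretory epithelia, with an unmated mean of 8.68 ± 0.12 and a mated mean of 8.91 ± 0.08 (SD, n = 3 each), a difference of 0.23 (95% confidence interval 0.03 to 0.42; adjusted p = 0.984 by limma). Its groups did not overlap, which held for 5.24% of all genes with mated rats higher and for 3.23% with mated rats lower. Ptgs2, the inducible cyclooxygenase, differed by 0.25 with overlapping groups. Slc38a2, a neutral amino acid carrier that hypertonicity induces, differed by 0.13, the chaperone Hspa4l by 0.13 and the kinase Sgk1 by 0.01.

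The regulators were near 0. Of 11 measured kinases and partners known to act on Nfat5, 6 were higher and 5 lower, between -0.10 for Akap13 and 0.11 for Plcg1, and 0 had an unadjusted p under 0.05 by limma. Over all genes 3.02% were higher and 1.55% lower at that level, so a count of 0 in so short a list is not read as a result. Mapk14, the p38 kinase, differed by -0.09. The 3 measured calcineurin-dependent relatives of Nfat5 differed by 0.01 for Nfatc2, -0.02 for Nfatc3 and -0.04 for Nfatc4. Among 12 measured genes that regulate cell volume through ions, 5 were higher and 7 lower, from -0.16 for the potassium-chloride cotransporter Slc12a7 to 0.10 for the sodium-potassium-chloride cotransporter Slc12a2. Of these 0 had an unadjusted p under 0.05, to be read beside the same shares of all genes.

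Over the 60 measured genes of all these lists, 33 were higher and 26 lower, with a median of 0.01, the same to 2 decimals as that of all 14506 genes. Of these genes 2 were higher and 1 lower at an unadjusted p under 0.05, close to the 3.02% higher and 1.55% lower of all genes, and 0 passed the adjusted threshold (by limma). The split was 28 higher and 32 lower after a second quantile normalization and 27 and 33 after median centring. The groups did not overlap for Bhmt, Aqp5 and the choline carrier Slc44a1 (a difference of 0.04), higher in mated rats, and for Ado, lower. Over all genes the groups were separated for 5.24% with mated rats higher and for 3.23% with mated rats lower. None of the 60 differences was as large as the 0.64 of Slc5a3, but that gene was chosen for its rise and its difference has no interval. The 95% confidence intervals of Slc6a13 (-0.04 to 0.97) and Akr1b8 (-0.90 to 1.30) by limma reached past 0.64. Those of the other list genes ended below it. Whether Slc5a3 differs from the list genes was not tested.

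**Figure D3:**
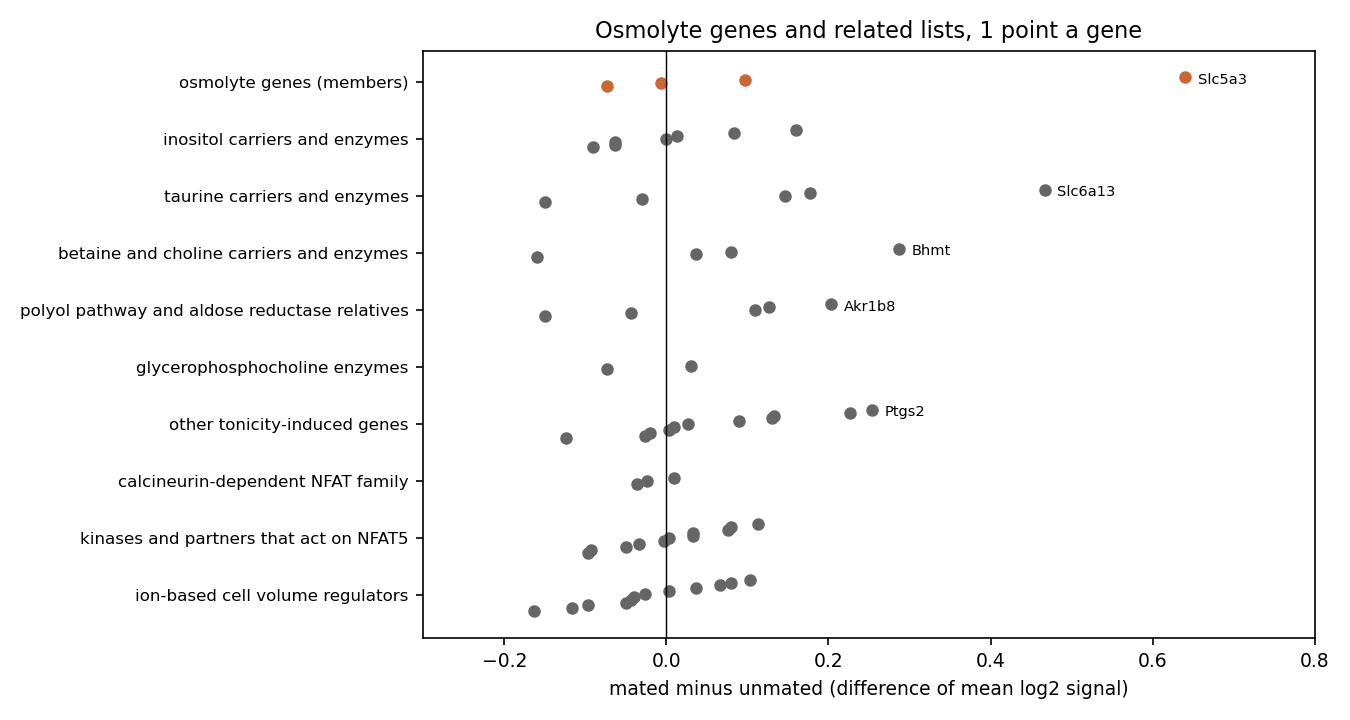
Mated minus unmated difference of mean log2 signal (x axis) for the 4 measured osmolyte genes (orange) and the 60 measured genes of the 9 related lists (grey), 1 point for each gene. Slc5a3, chosen for its rise, stands at 0.64, the list genes run from -0.16 to 0.47 (Slc6a13), and most lie within 0.2 of 0.

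The genes whose values followed Slc5a3 most closely were not osmolyte genes of the lists. Likeness was the root mean square difference over the 6 arrays between a gene's log2 profile and that of Slc5a3, each centred on its own mean. Among the genes above the receptor range, the 5 nearest were Etv1, an ETS transcription factor, at 0.09, Slc26a4, the anion exchanger pendrin, at 0.13, P4ha1, a collagen prolyl hydroxylase, at 0.13, Csf2rb, the shared receptor subunit for GM-CSF and related cytokines, at 0.14, and Armcx6 at 0.15. A flat profile, with the same value in every array, would stand at 0.36. Slc6a6 stood at 0.31, Nfat5 at 0.37 and Akr1b1 at 0.43, ranks of 1787, 7930 and 12256 among all 14505 other genes.

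Etv1 gave 8.25, 7.99 and 8.54 in unmated and 8.67, 8.68 and 9.04 in mated rats. Slc26a4 gave 10.12, 10.34 and 10.32 in unmated and 10.73, 10.65 and 11.29 in mated rats. Mated replicate 3 was the highest array for Slc5a3 and for each of the 5 nearest genes, whose differences ran from 0.39 for Csf2rb to 0.63 for Slc26a4. These genes were picked by this likeness from 10237 candidates above the receptor range, receptor genes and provisional symbols left out, so their differences are a description of it.

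**Figure D4:**
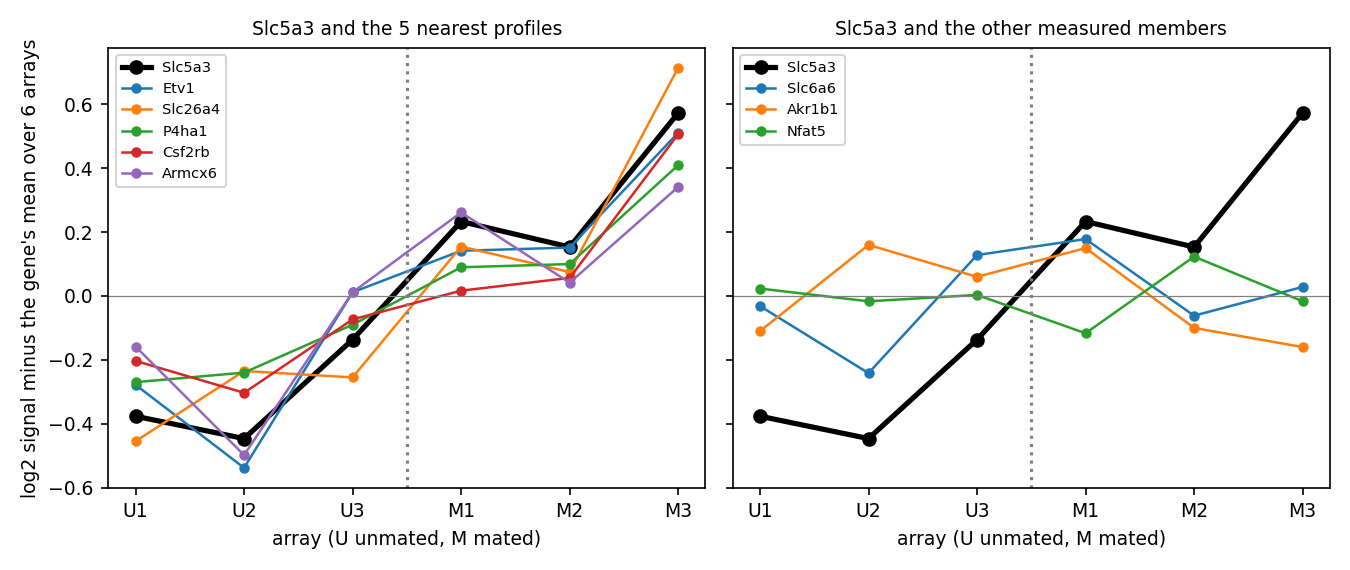
Log2 signal of each gene minus its own mean over the 6 arrays (y axis) in unmated (U1 to U3) and mated (M1 to M3) rats; lines join the arrays of 1 gene, and replicates have no order. The left panel shows Slc5a3 with its 5 nearest profiles, all highest in M3, and the right panel shows it with Slc6a6, Akr1b1 and Nfat5, which stay within 0.25 of their means.

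The arrays were alike in scale, and markers of the epithelium and of other cell types lay above the receptor range. Array medians over all probe sets lay between 7.89 and 7.94, and all 7 measured oviduct epithelial markers, including Krt8, Epcam, Pax8 and Foxj1, were above the receptor range, with a mean log2 signal over the list of 11.87 to 11.97 in unmated and 11.85 to 11.98 in mated rats. Fibroblast markers lay lower in mated rats for 6 of 6 genes, with list means of 7.27 to 7.68 in unmated and 7.24 to 7.39 in mated rats. The count was 6 of 6 with arrays centred on their medians and 4 of 6 after a second quantile normalization. The median difference was -0.19 as deposited and -0.21 after either rescaling. Lum, one of these markers, was within the receptor range. Also above the range were 5 of 6 smooth muscle, 5 of 6 fibroblast, 4 of 4 endothelial and 5 of 6 macrophage markers. Smooth muscle list means were 7.99 to 8.35 in unmated and 8.02 to 8.25 in mated rats. Endothelial means were 7.41 to 7.49 and 7.45 to 7.59, and macrophage means 7.70 to 7.86 and 7.73 to 7.77. All 6 neutrophil markers lay within the receptor range, with means of 6.25 to 6.42 and 6.36 to 6.46. Of 3 measured erythroid markers Alas2 lay within the receptor range, and the list means were 7.87 to 7.95 and 7.87 to 8.22. Of 6 sperm markers 4 lay within the receptor range, with list means of 6.75 to 6.87 and 6.76 to 6.91. The other 2, Prm1 and Prm2, had means of 7.78 and 7.67 in unmated rats, which were housed alone. A mean not far above the range may thus still be background. Single markers did separate the groups: of 44 measured, 3 were higher and 3 lower in mated rats without overlap, where 5.24% and 3.23% of all genes were. They were Tie1, an endothelial receptor, at a difference of 0.33, Elane at 0.22 and Prm1 at 0.17, and Dpt, a fibroblast matrix protein, at -0.46, Tnp1 at -0.18 and Csf1r at -0.13, none with an adjusted p under 0.984 by limma. The part of these cell types in the Slc5a3 difference was not tested.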

How the data were processed

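RNA of 6 rats was measured with 1 array each. The log2 signals the authors deposited, given to 2 decimals, were made with RMA and Affymetrix Expression Console, per the submitters' processing notes; versions, batches and genome build are not given in the sources used here. Values were used as deposited. Of 29214 probe sets, 15310 had 1 gene symbol, 323 several and 13581 none listed; the brightest probe set per gene left 14506 genes. The comparison of mated with unmated rats used limma 3.58.1 in R 4.3.3 (lmFit and eBayes, two-sided, Benjamini-Hochberg over all genes), which was tested on simulated data. Array number limits precision.

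The members and lists were chosen with earlier results of these data known. From each of the 9 lists (71 entries, 60 measured) the gene of smallest p and that of largest difference were named, plus 3 neighbours on each side of Slc5a3 and its 5 nearest profiles; other list genes were named by their role, with values seen. Sequences and gene order come from RefSeq tables of GRCr8. Same-numbered rats are different animals, and their deviations from group means correlated at 0.00, -0.08 and 0.07 over genes, so the main fit has no block. The alternatives were the block, trend, robust and weighted fits, 2 rescalings, 2 filters, 2 probe set rules and leaving out each array.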

Additional observations from a re-analysis of the deposited data

How the results depend on the processing

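Over 16 alternatives the difference of Slc5a3 ran from 0.51 to 0.73, both ends reached by leaving out an array. Slc6a6 ran from 0 to 0.19 and Akr1b1 from -0.17 to -0.01, with no adjusted p under 0.815 and 0.578 by limma. Nfat5 ran from -0.07 to 0.05 by leaving out arrays and changed sign with array weights (0.022) and without unmated replicate 1 (0.003) or mated replicate 1 (0.05), with no adjusted p under 0.841; the cause was not tested. No gene of the array passed the adjusted threshold under any of the 16. Of the list genes at an unadjusted p under 0.05, 2 (Bhmt and Aqp5) were higher. There was 1 after leaving out the dimmest 25% or the genes within the receptor range, since both filters removed Bhmt. There were 3 with the replicate block or array weights, and 2 to 4 on leaving out an array. Bhmt was under 0.05 in 14 of the 14 alternatives that tested it, Aqp5 in 13 of 16 and Ado in 6 of 14. The count of lower genes, 1 (Ado) in the values as reported, was 0 with the replicate block and with an intensity trend. It was 0 under both filters too, which removed Ado before the test. It was 2 with array weights, and 0 to 2 on leaving out an array. With the replicate block, as without it, no member and no gene of the array passed the adjusted threshold. Without mated replicate 1 the list counts were 4 higher and 2 lower, but the counts over all 14506 genes grew as well. At that level 822 genes of the array were higher and 581 lower without that rat, against 438 and 225 in the main fit. With array weights they were 769 and 438. With 3 rats a group, differences smaller than the intervals given cannot be resolved.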
